A study of Drosophila melanogaster with 3 samples.

Results

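Isolated ORC2 sites are the subject here, that is, binding sites of the origin recognition complex (ORC) that had no other site nearby on the same chromosome arm. A site was a peak of the authors' list for the whole series, referred to as the joined list, in which each peak spans overlapping peaks of both ChIP replicates. It was called isolated when its midpoint lay 20 kb or more from every other midpoint of that list on 2L, 3L, 3R or X. The rule found 520 of the 4091 joined peaks on these 4 arms, which is 12.7% (95% interval 11.7 to 13.8%), out of 5159 joined peaks in the whole series. The remaining 3571 peaks of the same arms are called the other peaks. Members were chosen by the measured positions of the peaks, so their number and spacing are a description of the list. Widths and scores took no part in the choice. Peaks found in 1 replicate did not enter the rule, but stretches free of joined peaks may hold fewer of them as well. Within 20 kb of an isolated site, nearly all further peaks are by construction found in 1 replicate only.

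Chromatin came from asynchronous cultures of Kc167, a female Drosophila melanogaster line derived from embryos, of genotype se/e. ORC2, a subunit of ORC, was precipitated with a crude rabbit polyclonal serum in 2 ChIP replicates from separate extractions, and 1 input DNA sample accompanies them. Both replicates are the same line in the same state, so there is no contrast of conditions. All coordinates are on FlyBase release 5.

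ORC binds DNA in G1 and loads the MCM helicase, which makes a site competent to start replication in the following S phase. Only some of these licensed sites fire in a given cell cycle, and dormant ones can be used when replication forks stall. In flies ORC has no strict sequence requirement and is found mainly in open chromatin, often at active promoters. Genes and sequence under the peaks were not analysed here.

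On the 4 arms the replicate 1 list held 6858 peaks and the replicate 2 list 5152. Of these, 2745 in replicate 1 and 945 in replicate 2 shared no base with a peak of the other replicate and are called single-replicate peaks. The score of a peak is the authors' value with no stated unit, so scores were ranked within an arm, as percentiles of its joined peaks. Read depth is unknown, and intervals cover the counting error of peaks only. With only 2 ChIP replicates no test across samples was run. Isolated and other peaks are therefore compared by exact 95% intervals, and by whether both replicates and all 4 arms gave the same direction.

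Isolated sites were present on every arm examined and made up the smallest share on X. There were 107 among 854 joined peaks on 2L (12.5%, 10.4 to 14.9%), 132 among 941 on 3L (14.0%, 11.9 to 16.4%), 165 among 1159 on 3R (14.2%, 12.3 to 16.4%) and 116 among 1137 on X (10.2%, 8.50 to 12.1%). The interval for X did not overlap that for 3R but overlapped those for 2L and 3L. Per Mb the arms differed less, because X carried more joined peaks in all, 50.7 per Mb against 37.2 on 2L. There were 4.66 isolated sites per Mb on 2L (3.82 to 5.63), 5.38 on 3L (4.50 to 6.38), 5.92 on 3R (5.05 to 6.89) and 5.17 on X (4.28 to 6.21), and these intervals all overlapped.

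Distances from isolated sites to their neighbours reached well beyond the 20 kb of the rule. The distance to the nearer neighbour had a median of 33.0 kb, with quartiles of 26.0 and 49.0 kb. It was under 30 kb for 207 sites, 30 to 40 kb for 128, and 40 kb or more for 185 (35.6%). On the farther side the median was 73.7 kb among the 515 sites with neighbours on both sides. The limit falls within a continuous range of distances. On 3L, sites at 3767955 to 3768094 and 5945489 to 5945906 lay just inside it, with nearest distances of 20003 and 20057 bp. The sites at 21452870 to 21452993 on 3R (19973 bp) and at 7956816 to 7957051 on 2L (19961 bp) lay just outside.

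The site farthest from any other was the last joined peak of 2L, at the centromere-proximal end of the arm's coordinates (22960947 to 22961219). It lay 488 kb from the preceding peak and had no neighbour on the other side, and its end is also the largest peak end on 2L, which sets the length used for that arm. It was 273 bp wide in replicate 1 and 68 bp wide in replicate 2, with nearly equal scores of 2.97 in both. Of the 520 sites, 5 were the first or last of their arm and so had 1 neighbour only.

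The next 4 sites by distance had neighbours on both sides. On 3L, the site at 13221647 to 13222027 had 184 and 182 kb of DNA free of joined peaks on its 2 sides. Its score was 2.96 in replicate 1 and 2.72 in replicate 2, near the middle of its arm, and 2 peaks found in replicate 2 only lay within 10 kb. On X, the site at 12097629 to 12098001 was 175 and 260 kb from its neighbours. It was a low-scoring site (2.18 and 2.16, percentile 17.0 of X) that was 373 bp wide in replicate 1 and 120 bp in replicate 2, and no peak of either replicate lay within 20 kb of it. On 2L, the site at 17963181 to 17963391 was 178 and 175 kb from its neighbours. It was among the higher-scoring sites of 2L (4.78 and 4.65, percentile 91.6), and its width of 205 bp in replicate 1 was close to the 199 bp of replicate 2. Within 10 kb of it lay 2 peaks found in replicate 1 only. On 3R, the site at 1996583 to 1996716 was 162 and 175 kb from its neighbours, scored 3.69 and 4.07, and had no other peak of either replicate within 20 kb. The most remote sites thus included both low and high scores.

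Some isolated sites followed each other along an arm, which the rule favours, since the neighbour of an isolated site already has 1 long gap. The 520 sites formed 324 runs in which no other joined peak intervened. Of these runs, 201 held a single site, 73 held 2, 33 held 3, 12 held 4, 4 held 5 and 1 held 6. The longest run lay on 3R between 22014515 and 22287431 and spanned 273 kb; it was singled out after its length was seen. Its 6 members differed widely in score, from percentile 1.64 of the arm at 22266282 to 22266522 to percentile 96.5 at 22014515 to 22014776. The low-scoring member was 241 bp wide in replicate 1 and only 34 bp wide in replicate 2. The high-scoring member was 262 and 186 bp wide, with scores of 5.78 and 5.62. Within the span of this run there were 6 single-replicate peaks of replicate 1 and none of replicate 2, and 4 of the 6 lay within 10 kb of the member at 22055669 to 22056107. The longest span among runs of 5 or more was 694 kb on 3L between 23530494 and 24224773, near the centromere-proximal end of the coordinates. It held 5 isolated sites together with 7 single-replicate peaks of replicate 1 and 8 of replicate 2.

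Isolated sites were found along the whole length of the arms, as the plot of counts along the arm shows. With each arm cut into 10 equal parts from its centromere-proximal end outward and the arms added up, the number of isolated sites per part lay between 46 and 60. Here and below, the part next to the centromere is the part at that end of the arm's coordinates. Distance to the centromere itself was not measured. The other peaks ranged from 245 to 433. On single arms the counts of isolated sites varied more, from 8 to 15 on 2L, 9 to 21 on 3L, 13 to 21 on 3R and 7 to 16 on X. On X their highest count was 2.29 times the lowest, against 2.30 times for the other peaks. The part next to the centromere held 52 isolated sites. They made up 17.5% (13.4 to 22.3%) of its joined peaks, the highest share of the 10 parts. The adjoining part had the lowest, 9.75% (7.22 to 12.8%), and only its interval was separate from that of the part next to the centromere. Counted from the centromere, part 4 had 15.8% and part 9 had 14.6%. On 3R the part next to the centromere had 10.9% and the adjoining one 10.2%. The part next to the centromere had the highest share of its arm on 3L only (31.6%). On 2L it had 22.7%, below the 27.1% of part 4. On X it had 17.2%, and so had part 9. The rule itself keeps members apart and removes peaks from dense stretches, so the pooled counts are partly fixed by the choice.

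**Figure D1:**
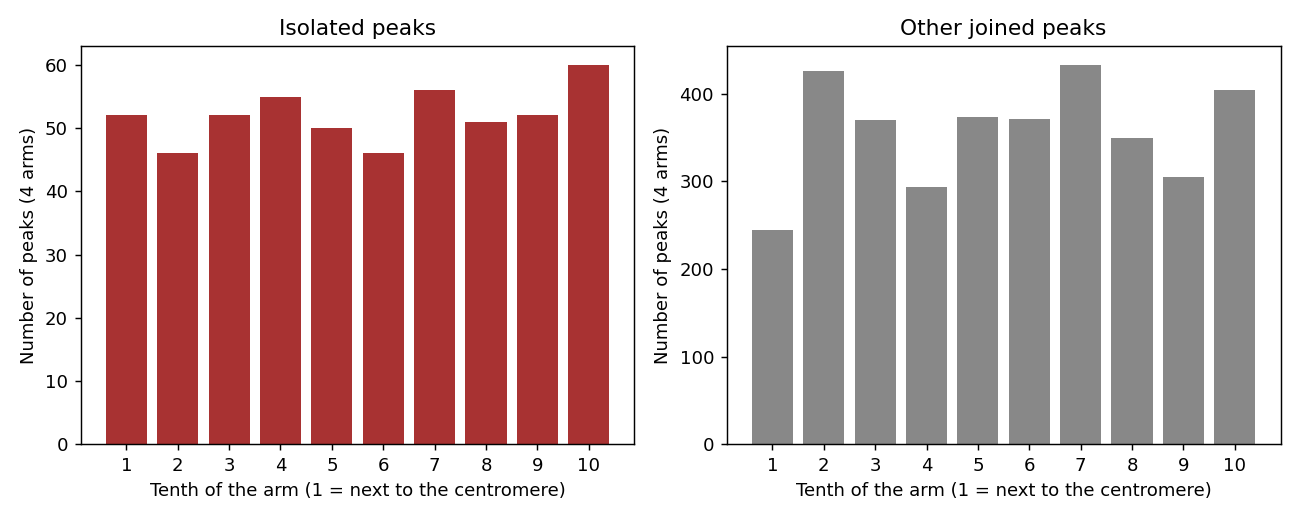
Number of isolated sites (left) and other joined peaks (right) in each of 10 equal parts of the arm, counted from the centromere-proximal end of the coordinates and added over 2L, 3L, 3R and X. Isolated sites lie between 46 and 60 in every part, while the other peaks range from 245 in the centromere-proximal part to 433.

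With each arm cut into 3 equal parts there was no preference that the intervals resolved. The part next to the centromere held 167 isolated sites (32.1%, 28.1 to 36.3%), against 32.0% of the other peaks (30.5 to 33.6%) and 32.0% of all joined peaks on these arms. The distal part held 182 (35.0%, 30.9 to 39.3%), against 32.9% of the other peaks. The share in the part next to the centromere was 30.8% on 2L, 31.1% on 3L, 32.1% on 3R and 34.5% on X, and on each arm the interval included the share among the other peaks. Distance from the centromere-proximal end had a median of 51.4% of the arm length for isolated sites and 51.9% for the other peaks.

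At a scale of 1 Mb every full block of the 4 arms held an isolated site. Over 95 such blocks the number was 5.28 ± 2.32 (SD), from 1 to 13. The other peaks numbered 2 to 62 per block. The largest number, 13, fell on 3R between 9000001 and 10000000, where 24 other peaks lay. The block of 3L at the distal end, from 1 to 1000000, held 12 beside 29 other peaks. Only 1 isolated site lay in 4 blocks, which held 38 and 43 other peaks on 2L, 53 on 3L and 56 on X, where the medians per block were 36, 33 and 47.5. These blocks were picked for their counts.

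Isolated sites were slightly narrower than the other peaks. The median joined width was 176 bp (166 to 184 bp) for isolated sites and 196 bp (189 to 202 bp) for the other peaks, which differ by -20 bp. Replicate 1 gave medians of 166 bp (157 to 176 bp) and 183 bp (177 to 189 bp), and these intervals did not overlap. Replicate 2 gave 120 bp (113 to 127 bp) and 126 bp (123 to 130 bp), and the intervals did overlap, so the difference there was not resolved. The joined width was lower on each arm, by 8 bp on 2L, 15.5 bp on 3L, 23.5 bp on 3R and 33 bp on X in the medians. The intervals overlapped on 2L, 3L and 3R, and were separate only on X (154 to 188 bp against 190 to 214 bp). In replicate 2 the medians on 2L were equal at 130 bp.

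Wide peaks were scarcer among isolated sites. The quartiles of width were 116 and 263 bp for isolated sites and 128 and 345 bp for the other peaks. Only 28 isolated sites (5.38%, 3.61 to 7.69%) were 500 bp wide or more, against 416 of the other peaks (11.6%, 10.6 to 12.7%). At 1000 bp or more there was 1 isolated site and 45 other peaks. Narrow peaks were about equally common in both, with 13.3% (10.5 to 16.5%) of isolated sites and 12.2% (11.2 to 13.4%) of the other peaks under 100 bp. The share at 500 bp or more was lower among isolated sites on each arm. On 3L it was 3.79% (1.24 to 8.62%) against 11.4% (9.27 to 13.8%), and on X 4.31% (1.41 to 9.77%) against 12.2% (10.3 to 14.4%). On 2L (5.61% against 12.9%) and 3R (7.27% against 10.4%) the intervals overlapped. Sorted by distance to the nearest midpoint, the share was 10.4% under 1 kb and 14.9% at 1 to 5 kb. It was 8.72% (6.56 to 11.3%) at 5 to 10 kb and 8.8% (6.47 to 11.6%) at 10 to 20 kb. These last 2 intervals overlapped that of isolated sites. All these shares use the joined width only.

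The widest isolated site was at 16110624 to 16111875 on X. It measured 1217 bp in replicate 1 and 1047 bp in replicate 2, with scores of 2.87 and 2.71, and no other peak of either replicate lay within 20 kb. On 2L the widest, at 21309240 to 21310178, was 939 bp in replicate 1, while its part in replicate 2 covered 367 bp; 3 single-replicate peaks of replicate 1 lay within 20 kb. The widest on 3R, at 24460253 to 24461127, covered 849 and 402 bp, and its scores of 2.60 and 5.34 differed between replicates. On 3L the widest, at 319284 to 319987, was nearly the same in both replicates, with 697 and 683 bp and scores of 2.80 and 2.81. These 4 sites thus had similar widths in both replicates on X and 3L and were much narrower in replicate 2 on 2L and 3R.

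Scores of isolated sites were more often among the highest of their arm. Of the 520 sites, 86 (16.5%, 13.4 to 20.02%) scored in the top 10% of their arm, against 325 of the other peaks (9.10%, 8.18 to 10.1%), where 10% of all joined peaks qualify by definition. The shares were 15.8% (12.7 to 19.2%) against 9.21% (8.28 to 10.2%) with replicate 1 scores and 16.3% (13.3 to 19.8%) against 9.13% (8.20 to 10.1%) with replicate 2 scores. The share was higher on each arm, at 17.8% against 8.97% on 2L, 13.6% against 9.52% on 3L, 16.4% against 8.95% on 3R and 19.0% against 9.01% on X. On 3L and 2L the intervals overlapped. In the top 1% there were 15 isolated sites (2.88%, 1.62 to 4.71%) and 28 other peaks (0.784%, 0.522 to 1.13%).

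**Figure D2:**
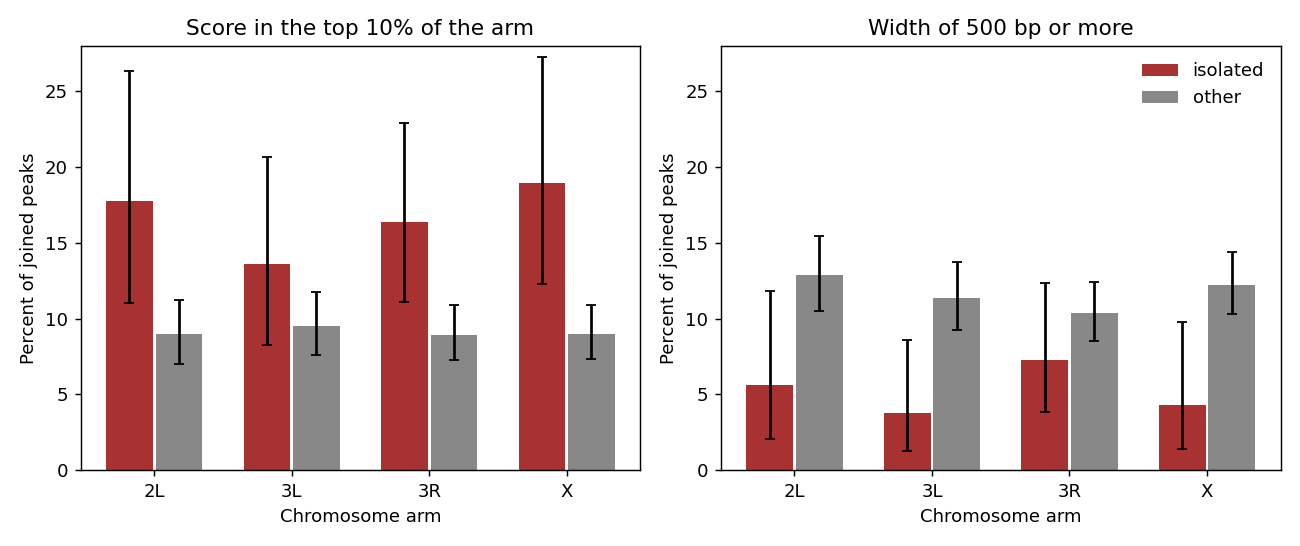
Share of isolated sites (red) and other joined peaks (grey) whose score was in the top 10% of their arm (left) or whose width was 500 bp or more (right), in percent per arm, with exact 95% binomial intervals. On every arm the red bar is the taller one for scores and the shorter one for width.

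The middle of the score range moved less than its upper end. The median score percentile was 55.4 (50.9 to 59.4) for isolated sites and 49.3 (47.7 to 50.9) for the other peaks, a difference of 6.11 percentile points whose intervals just overlapped. It was 53.5 (49.9 to 58.1) against 49.4 (47.8 to 51.1) in replicate 1 and 55.8 (51.4 to 60.4) against 49.3 (47.5 to 50.9) in replicate 2. On the authors' scale the joined medians were 3.01 and 2.86.

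On 2L, 3R and X the highest score of the whole arm belonged to an isolated site, and on 3L the second highest did. Of the 40 peaks that made up the top 10 of each arm, 15 were isolated, with 3 on 2L, 5 on 3L, 4 on 3R and 3 on X. The 2L site, at 11948580 to 11948737, scored 9.63 in replicate 1 over 155 bp and 14.3 in replicate 2 over 150 bp, and its neighbours were 119 and 54.8 kb away. The 3R site, at 12323226 to 12323302, was narrow, at 41 and 59 bp, and scored 11.95 and 16.0. The X site, at 12861518 to 12861607, scored 17.8 in replicate 1 from a peak of only 11 bp and 10.4 in replicate 2 over 90 bp. These 3 sites had no other peak of either replicate within 20 kb. The best isolated site on 3L, at 6257693 to 6257800, was the most alike between replicates, with scores of 9.13 and 9.12 over 108 and 97 bp, and the next joined peak on its far side was 231 kb away. Of the 86 isolated sites in the top 10%, 19 were under 100 bp wide, beside 69 of all 520 isolated sites. Of the 325 other peaks in the top 10%, 50 were, beside 437 of all 3571 other peaks. Narrow peaks thus made up a larger share of the top-scoring peaks than of all peaks in both groups, though most top-scoring peaks were not this narrow. Peaks both top-scoring and under 100 bp were 3.65% (2.21 to 5.65%) of isolated sites and 1.40% (1.04 to 1.84%) of the other peaks.

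In both width and score the intervals of isolated sites overlapped those of peaks with moderately distant neighbours. With joined peaks sorted by the distance to the nearest midpoint, the median width was 201 bp under 1 kb, 205 bp at 1 to 5 kb, 176 bp at 5 to 10 kb and 183 bp (166 to 197 bp) at 10 to 20 kb. Isolated sites gave 178 bp (168 to 189 bp) at 20 to 40 kb and 170 bp (148 to 183 bp) beyond. The wider medians thus belonged to peaks with a neighbour within 5 kb. The median score percentile was between 47.4 and 48.9 for the 3 classes below 10 kb, 55.8 (51.8 to 61.0) at 10 to 20 kb, 55.6 (47.8 to 60.3) at 20 to 40 kb and 55.04 (50.5 to 64.0) at 40 kb or more. Against the 500 peaks at 10 to 20 kb, a comparison added after seeing the data, the isolated median was -0.361 percentile points away and the width difference was -7 bp. The share in the top 10% by score was 7.66 to 8.71% in the classes below 10 kb, 14.0% (11.1 to 17.4%) at 10 to 20 kb, 15.5% (11.8 to 19.9%) at 20 to 40 kb and 18.4% (13.1 to 24.7%) at 40 kb or more. The last 3 intervals overlapped each other.

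**Figure D3:**
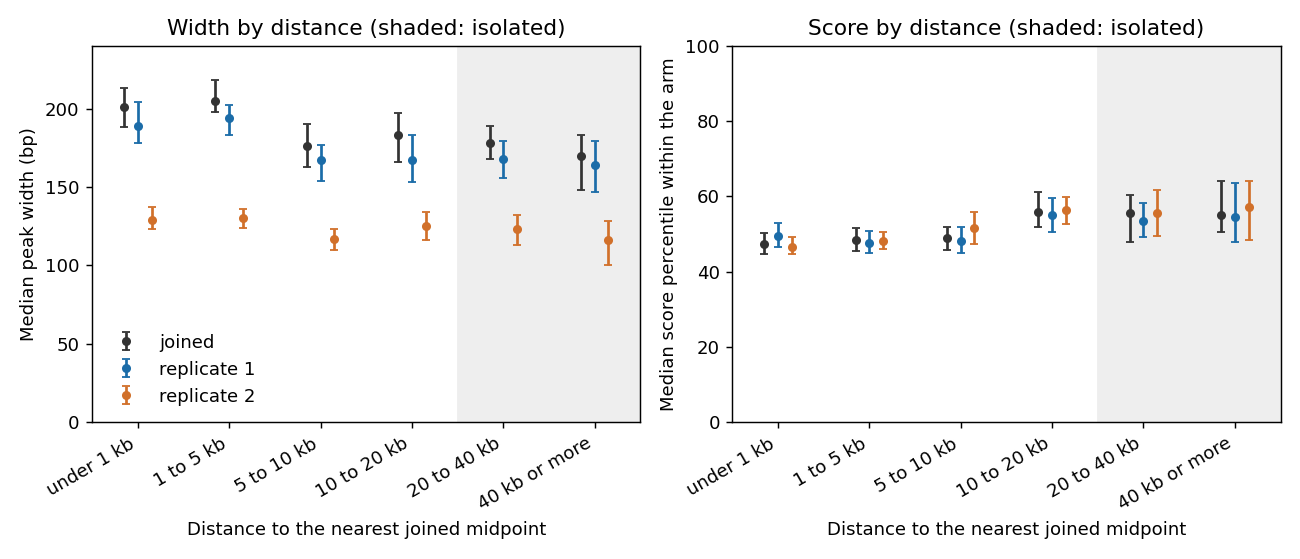
Median width in bp (left) and median score percentile within the arm (right) of joined peaks, by distance to the nearest joined midpoint, for the joined peak and its part in each replicate, with exact 95% intervals of the median. The shaded classes are the isolated sites. Joined widths are 201 and 205 bp below 5 kb and between 170 and 183 bp at larger distances. Joined score percentiles are higher from 10 to 20 kb on, before the isolated classes begin, but the intervals at 5 to 10 kb and 10 to 20 kb just overlap. Replicate 2 medians rise gradually, from 46.5 under 1 kb through 48.2 and 51.5 to 56.4 at 10 to 20 kb.

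The replicates resembled each other at isolated sites about as much as elsewhere. Of the 520 sites, 511 (98.3%, 96.7 to 99.2%) joined exactly 1 peak of each replicate, against 96.6% (96.0 to 97.2%) of the other peaks. The direction was the opposite on 2L, with 100 of 107 isolated sites and 726 of 747 other peaks. In the 511 sites of all arms the median offset between the midpoints of the 2 replicates was 17 bp, against 17.25 bp at the other peaks. At the 90th percentile the offsets were 70.5 and 92.6 bp. The replicate 2 part was narrower in 78.1% of isolated sites and 80.5% of the other peaks. Dividing the replicate 2 score by that of replicate 1 gave a median of 0.992 (quartiles 0.862 and 1.14) at isolated sites and 0.971 (0.849 and 1.12) at the other peaks. Overlap between replicates defines a joined peak, which limits how far these values can differ.

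A separate question is whether a peak that stands alone within 1 replicate is found again in the other. In replicate 1, 412 peaks had no other replicate 1 midpoint within 20 kb, and 247 of them (59.95%, 55.0 to 64.7%) were overlapped by a replicate 2 peak. The share was 59.98% (58.8 to 61.2%) for the other 6446 replicate 1 peaks and 60.0% overall. In replicate 2, 389 of 510 such peaks (76.3%, 72.3 to 79.9%) were found in replicate 1, against 82.2% (81.1 to 83.3%) of the other 4642 and 81.7% overall. Standing alone thus went with nearly the same share in replicate 1, where the interval is wide, and with a lower share in replicate 2. The replicate 2 share did not fall steadily with distance to the nearest replicate 2 midpoint. It was 84.6% (82.8 to 86.2%) under 1 kb, 81.1% at 1 to 5 kb, 78.5% (75.2 to 81.5%) at 5 to 10 kb and 82.8% at 10 to 20 kb. Only the interval under 1 kb was separate from that of the peaks standing alone. On the separate arms the replicate 2 share was lower on 2L (67.9% against 80.4%), 3L (71.6% against 80.9%), 3R (80.7% against 82.3%) and X (84.0% against 84.8%), and the intervals overlapped on each arm except 2L. In replicate 1 it was lower on 2L and 3L, higher on 3R and equal to 4 digits on X (63.75% for both).

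Single-replicate peaks lay around many isolated sites, though around fewer than around the other peaks. Within 10 kb of the midpoint, 235 of 520 isolated sites (45.2%, 40.9 to 49.6%) had at least 1 single-replicate peak, against 2688 of the other peaks (75.3%, 73.8 to 76.7%) and 71.4% of all joined peaks. With replicate 1 alone the shares were 38.7% (34.4 to 43.0%) and 69.3% (67.7 to 70.8%), and with replicate 2 alone 15.4% (12.4 to 18.8%) and 33.9% (32.4 to 35.5%). Each arm gave the same direction, with 44.9% against 74.2% on 2L, 51.5% against 78.6% on 3L, 39.4% against 74.4% on 3R and 46.6% against 74.2% on X. No interval of isolated sites reached that of the other peaks on the same arm. Windows of the other peaks overlap each other, so 1 single-replicate peak can count for several of them. Their intervals treat these peaks as independent and may be too narrow. The rule picks stretches poor in joined peaks, so the lower share around isolated sites may be partly built into the choice, which was not tested. By distance to the nearest joined peak the share was 77.5% (74.9 to 79.9%) under 1 kb and 81.3% (79.1 to 83.3%) at 1 to 5 kb, and then lower, from 72.0% (68.1 to 75.6%) at 5 to 10 kb through 57.6% (53.1 to 62.0%) at 10 to 20 kb to 46.0% (40.5 to 51.5%) at 20 to 40 kb and 43.8% (36.5 to 51.3%) beyond.

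The windows of 10 kb on each side of isolated sites do not overlap those of other peaks, so the arms could be divided into 3 zones. Isolated zones covered 10.4 Mb, or 10.6% of the 4 arms, and held 404 of 3690 single-replicate peaks, or 10.9%. In replicate 1 the density was 30.03 per Mb (26.8 to 33.6) in isolated zones, 56.6 (53.97 to 59.2) within 10 kb of other peaks and 11.6 (10.7 to 12.5) in the rest of the arms. In replicate 2 the densities were 8.85 (7.14 to 10.9), 18.4 (16.9 to 19.9) and 4.89 (4.32 to 5.502). Isolated zones therefore lay between the other zones in both replicates and their intervals included the arm-wide densities of 28.1 and 9.66 per Mb. The same order held on each arm in both replicates.

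Close to isolated sites the density was highest in the first kb. In replicate 1 it was 76.9 per Mb (61.0 to 95.7) within 1 kb of the midpoint, 34.6 (24.2 to 47.9) at 1 to 2 kb, 29.2 (23.5 to 35.8) at 2 to 5 kb and 17.9 (14.4 to 21.9) at 10 to 15 kb. In replicate 2 it was 20.2 (12.5 to 30.9) within 1 kb, 13.5 (7.36 to 22.6) at 1 to 2 kb, 7.37 (4.67 to 11.1) at 2 to 5 kb, 5.19 (3.42 to 7.55) at 10 to 15 kb and 7.31 (5.17 to 10.03) at 15 to 20 kb, where the interval included the arm-wide mean. Around the other peaks the densities in the first kb were 112 and 34.6 per Mb. They likewise fell with distance, to 45.7 and 15.1 at 15 to 20 kb, so the decline was not particular to isolated sites. The densities within 1 kb of isolated sites rest on 80 peaks in replicate 1 and 21 in replicate 2, which lay near 85 isolated sites (16.3%, 13.3 to 19.8%). These 85 sites had a median width of 179 bp (139 to 194 bp), and the 435 without such a neighbour 175 bp (165 to 187 bp). Whether a nearby single-replicate peak is part of the same bound region that was called separately was not tested.

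**Figure D4:**
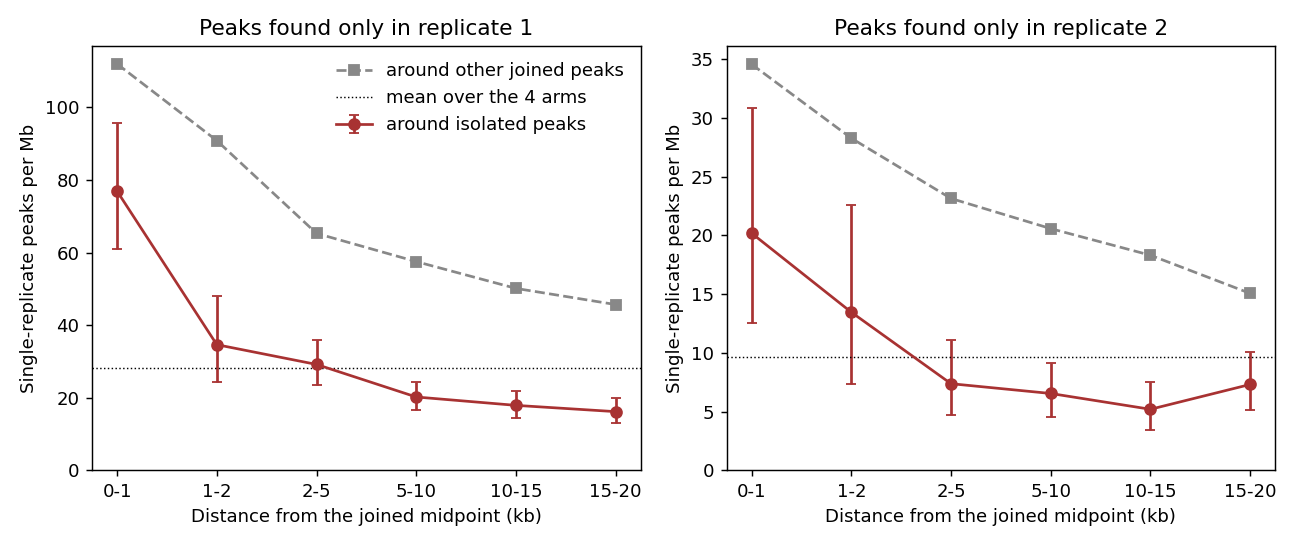
Density of single-replicate peaks (per Mb, linear axes that differ between panels) in rings at increasing distance from the midpoint of isolated sites (red, with exact 95% Poisson intervals) and of other joined peaks (grey, whose rings overlap each other, so no interval is given), for replicate 1 (left) and replicate 2 (right). The dotted line is the mean over the 4 arms. Around isolated sites the density is above that line within 1 kb (76.9 and 20.2 per Mb) and below it at 5 to 10 kb and beyond.

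Single-replicate peaks near isolated sites were narrow. Their median width was 70 bp (59 to 78 bp) in replicate 1, against 73 bp (70 to 77 bp) near other peaks and 57 bp (52 to 63 bp) in the rest of the arms. In replicate 2 it was 31.5 bp (20 to 40 bp), 36 bp (33 to 42 bp) and 34 bp (28 to 43 bp). Ranked among the single-replicate peaks of their arm, those of replicate 2 near isolated sites had a median score percentile of 62.1 (53.7 to 68.6), against 46.3 (42.9 to 50.6) near other peaks and 53.5 (49.0 to 58.3) in the rest of the arms. The interval near isolated sites overlapped that of the rest of the arms. In replicate 1 the same medians were 52.6 (46.0 to 57.2), 48.7 (45.9 to 51.1) and 52.4 (49.0 to 57.2), and all of these overlapped.

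When every peak of either replicate counted as a neighbour, 208 of the 520 sites (40%, 35.8 to 44.4%) still had none within 20 kb, which is 5.08% of all joined peaks on the arms. There were 47 on 2L, 46 on 3L, 73 on 3R and 42 on X. A further 138 had 1 such peak, 97 had 2 and 77 had 3 or more, up to 8. In the replicate 1 list alone 248 sites (47.7%, 43.3 to 52.1%) had no other peak within 20 kb, and in the replicate 2 list alone 394 did (75.8%, 71.8 to 79.4%). The 208 sites had a median width of 169 bp (156 to 183 bp) and a score percentile of 58.4 (53.2 to 67.3), and the other 312 had 179 bp (168 to 193 bp) and 52.7 (44.2 to 58.4), with overlapping intervals for both.

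At the other extreme, 3 isolated sites had 8 single-replicate peaks within 20 kb. The 3L site at 774523 to 775035 had 8 from replicate 1 and none from replicate 2. The site itself measured 508 bp in replicate 1 and 438 bp in replicate 2, with scores of 4.23 and 3.36. Around the 3L site at 19439753 to 19439872 and the 3R site at 8545166 to 8545775 there were 4 from each replicate, which by definition overlap no peak of the other replicate. The 3L site was narrow (114 and 120 bp) with high scores (4.49 and 5.62), and the 3R site was wide (610 and 435 bp) with lower scores (2.86 and 2.34). On 2L, the site at 2376276 to 2376391 had 6 from replicate 1 and 1 from replicate 2, with joined neighbours no closer than 117 kb, and the site at 9668563 to 9668662 had 5 and 2. These last 2 were taken in order of position from the sites with 7.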

How the data were processed

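Peak lists with a start, an end and a score were deposited by the authors, 1 per ChIP replicate and 1 for both. They use FlyBase release 5 coordinates, per the file headers, and name the peak caller PeakSeq. The deposited score carries no stated unit. For aligner, control, threshold and read depth the sources used here give nothing. In the joined list all 5159 peaks had the outer limits of overlapping peaks of both replicates, and 5133 scores were the mean of the joined scores (tolerance 0.0001), so the list is no independent measurement.

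Midpoints were rounded down. A single-replicate peak shared less than 1 bp with the other replicate. Arm length was the largest peak end in either replicate. The centromere-proximal end is the high end of the coordinates on 2L, 3L and X and the low end on 3R. Intervals are exact 95% binomial (Clopper-Pearson, and order statistics for medians) or Poisson. The score percentile is the rank within the arm. Members, lists and comparisons were chosen with earlier results of these data known. Named sites were the 5 most distant, the highest-scoring and widest per arm, the 5 with most single-replicate peaks and 2 on each side of the limit. A gene table of release 6 was left unused. The work used matplotlib 3.10.9, scipy 1.17.1, pandas 2.3.3, numpy 2.4.6 and Python 3.11.15, and the computations were checked on simulated lists.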

Additional observations from a re-analysis of the deposited data

How the results depend on the processing

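Peaks are not replicates and read depth is unknown, so differences of a few bp or percentile points cannot be set against technical spread. Of 39 alternative values, 28 stayed near the reported value. For shares that means within its 95% interval, for counts within 1.5 times, and for differences within the widest range that the 2 medians' separate intervals allow (-36 to -5 bp for width), which is wider than a 95% interval. The width difference of -20 bp was -7.5 bp among the higher-scoring 50% of peaks and -7 bp against peaks 10 to 20 kb from their nearest neighbour. The number of isolated sites was 1020 at a distance of 10 kb, 185 at 40 kb and 208 when every peak of either replicate was a neighbour, as fewer or more peaks then qualify by construction. Without replicate 1 or replicate 2 the rule was applied to the full list of the other replicate. The number was then 510 or 412 and the width difference -6 or -21.5 bp. The score difference was 4.47 or 8.99 percentile points and the share in the part (of 3) next to the centromere 34.5 or 33.98%. For the single-replicate peaks the isolated sites of the joined list were kept. The share with such a peak within 10 kb was 15.4% with those of replicate 2 only and 38.7% with those of replicate 1 only. It was 34.6% within 5 kb, 60.0% within 20 kb, 51.3% for an isolation distance of 10 kb, 56.1% among the higher-scoring 50% of peaks and 40% when single-replicate peaks were defined by midpoints over 500 bp apart; the windows and lists differ by construction. The score difference changed sign against peaks 10 to 20 kb from their nearest neighbour (-0.361 percentile points, added after seeing the data), and the cause was not tested.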
